A study of Mus musculus with 4 samples.

Results

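The genes described here are 9 collagen chains of the interstitial matrix and Serpinh1, the chaperone of procollagen, followed through ribosome footprints in mouse embryonic stem cells (ESCs) and embryoid bodies (EBs). They were chosen by symbol: Col1a1, Col1a2, Col3a1, Col5a1, Col5a2, Col6a1, Col6a2, Col6a3, Col15a1 and Serpinh1, which is 10 of the 20716 genes that the deposited table resolves. The choice of these genes, and of the gene lists below, was made with earlier results of these data known. Counts of them are therefore a description. Of these 10 genes 8 had a read in at least 1 library, and Col6a3 and Serpinh1 were listed at 0 in every library. Ribosome profiling sequences the mRNA stretches that ribosomes shield from nuclease, so a count follows both the amount of an mRNA and its occupancy by ribosomes.

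The 4 libraries were 1 each of Mettl3-KO EBs, WT EBs, Mettl3-KO ESCs and WT ESCs, all from the C57BL/6 strain. Mettl3 is the enzyme that places N6-methyladenosine on mRNA. ESCs of both genotypes were held in the naive state without serum, with LIF and the inhibitors CHIR99021 and PD0325901 against GSK3 and MEK. EBs of both genotypes were aggregates left to differentiate in serum-containing medium for 8 to 21 days, and the sources used here do not give the day of each EB library, the altered part of Mettl3 or the number of clones. With 1 library per group no difference between 2 libraries had a replicate check, and genotype cannot be told apart from cell line or library.

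Collagens are secreted trimers in which 3 chains wind into a triple helix, and glycine at every 3rd residue lets the chains pack together. Collagens I and III build the thick fibrils of connective tissue, collagen V sits inside those fibrils and sets their diameter, and collagen VI forms beaded filaments around cells. Collagen XV lies where fibrils meet basement membranes. Chains are hydroxylated and folded in the endoplasmic reticulum (ER), where Serpinh1 binds the finished helix, and they are shipped out in large carriers and trimmed outside the cell. In culture these genes are known as products of fibroblasts and other mesenchymal cells, and undifferentiated stem cells make little of them.

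The repeat that makes a collagen can be read directly in the coding sequence, and 1 coding exon from each measured chain is shown to display it. Each is the first exon of 54 bases in its gene that begins on a codon and carries a glycine codon, GGN, at every 3rd codon. Capitals mark those glycine codons, sequences run 5′ to 3′ on the coding strand, and positions are from RefSeq on GRCm38.p6.
Col1a1, coding exon 8, chr11:94939904-94939957, plus strand: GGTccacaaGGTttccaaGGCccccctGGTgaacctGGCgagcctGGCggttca
Col1a2, coding exon 8, chr6:4515481-4515534, plus strand: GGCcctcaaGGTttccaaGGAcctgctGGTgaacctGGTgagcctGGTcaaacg
Col3a1, coding exon 6, chr1:45325360-45325413, plus strand: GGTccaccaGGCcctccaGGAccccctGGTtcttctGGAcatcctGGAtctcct
Col5a1, coding exon 15, chr2:27965251-27965304, plus strand: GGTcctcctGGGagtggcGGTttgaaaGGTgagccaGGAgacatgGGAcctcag
Col5a2, coding exon 6, chr1:45434892-45434945, minus strand: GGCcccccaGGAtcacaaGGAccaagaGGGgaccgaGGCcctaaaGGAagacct
Col6a1, coding exon 9, chr10:76719623-76719676, minus strand: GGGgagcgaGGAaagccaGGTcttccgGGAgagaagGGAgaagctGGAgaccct
Col6a2, coding exon 5, chr10:76611948-76612001, minus strand: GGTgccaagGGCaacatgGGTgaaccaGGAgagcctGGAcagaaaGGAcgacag
Col15a1, coding exon 25, chr4:47292320-47292373, plus strand: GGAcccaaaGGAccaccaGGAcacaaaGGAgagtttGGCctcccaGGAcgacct

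The unbroken glycine repeat was longest in the fibrillar chains. Over the whole coding sequence the longest run of GGN at every 3rd codon was 338 repeats in Col1a1, 339 in Col1a2, 344 in Col3a1, 338 in Col5a1 and 339 in Col5a2, the 5 fibril-forming chains. It was 87 in both Col6a1 and Col6a2, whose short helix lies between globular domains, 45 in Col6a3 and 30 in Col15a1, whose helix is interrupted. Serpinh1, which is no collagen, had no such run beyond 1. Coding exons of exactly 54 bases numbered 21 to 29 in the fibrillar chains and 1 to 3 in the others with a helix. The 2 exons shown for Col1a1 and Col1a2 were identical at 42 of 54 bases.

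Repetitive as they look, the measured sequences held few short stretches found more than once in the genome. Of the 28-base windows of the coding sequence, at most 0.0733% in any of the 8 measured genes were found more than once in GRCm38.p6. Of the 2 genes listed at 0, Serpinh1 had 0 of 1227 such windows and Col6a3 had 170 of 9828 (1.73%). A window across an exon junction has no place of its own in the genome, so a single copy of it elsewhere was not counted. Only exact copies were sought. Reads without a unique place took 48.4% to 55.7% of all reads in the table.

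Serpinh1 and Col6a3 could not be followed. Serpinh1 (chromosome 7, 99345375 to 99353239) has 4 entries in the table, and each of them shares every coding base with another entry, so that a read cannot be given to 1 entry alone. Of 6659 entries in that position 6649 were at 0 in all libraries (99.8%), against 20.8% of the 16363 entries that share no coding base. Col6a3 (chromosome 1, 90766860 to 90844001) has 2 entries; the longer keeps 18.5% of its coding bases to itself, and it was still listed at 0. The zeros of these 2 genes are not read as absence of translation. Each of the other 8 genes has 1 entry that shares no coding base.

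Reads on genes numbered 4075850 in KO EBs, 4234361 in WT EBs, 11455539 in KO ESCs and 8570204 in WT ESCs. A single read amounts to a normalised count of 1.49 in KO EBs, 1.56 in WT EBs, 0.533 in KO ESCs and 0.778 in WT ESCs. Mettl3 itself stood at 327 in KO EBs against 429 in WT EBs, and at 298 in KO ESCs against 563 in WT ESCs; a count over the whole coding sequence does not show a small deletion, so this is no check of the knockout. Most pluripotency markers were abundant in all 4 libraries, EBs included. Tbx3 was listed at 0 and Esrrb at no more than 11.9 in any library, and both have 2 entries in the table. The summed level of the 11 on the list was 28185 in KO EBs, 16902 in WT EBs, 22709 in KO ESCs and 29964 in WT ESCs. Visceral endoderm markers, 11 genes of the outer layer of an EB, summed to 3158 in KO EBs against 47538 in WT EBs.

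Footprints on the 8 measured collagen genes together were most abundant in KO EBs. Their summed normalised count was 11070 in KO EBs, 1317 in WT EBs, 2644 in KO ESCs and 571 in WT ESCs, from 7416, 845, 4956 and 734 reads. The ratio of the sums, KO over WT, was 8.41 for EBs (interval 7.83 to 9.04) and 4.63 for ESCs (4.28 to 5.01). Intervals are 95% conditional exact binomial (Clopper-Pearson) intervals of the ratio of reads, and they cover counting error only.

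**Figure D1:**
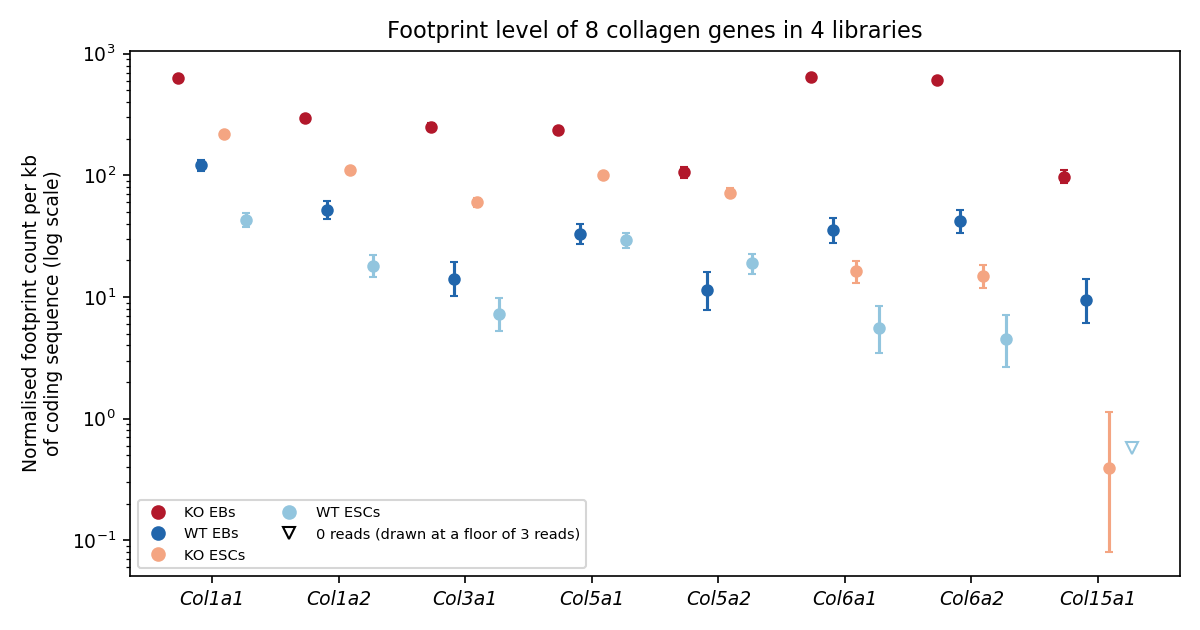
Normalised footprint count per kb of coding sequence (log axis) of the 8 measured collagen genes in each library; points are single libraries, bars are 95% exact Poisson intervals, and the triangle marks 0 reads drawn at a floor of 3 reads. KO EBs are the highest of the 4 libraries for all 8 genes, from 97.5 for Col15a1 to 638 for Col6a1.

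The major fibrillar chains come first. Col1a1 (NM_007742; chromosome 11, 94936224 to 94953042), the α1 chain of collagen I, had a normalised count of 2733 in KO EBs, 527 in WT EBs, 954 in KO ESCs and 187 in WT ESCs. Both KO libraries stood above both WT libraries. The share of all genes with that order was not counted, so here and below the order only describes the values. The ratio of KO to WT was nearly the same at both stages, 5.19-fold in EBs (4.62 to 5.84) and 5.11-fold in ESCs (4.46 to 5.87). Col1a2 (NM_007743; chromosome 6, 4505618 to 4541543), its α2 partner, had 1209 in KO EBs, 215 in WT EBs, 452 in KO ESCs and 74.7 in WT ESCs. Its ratio of KO to WT was 5.62 for EBs (4.69 to 6.78) and 6.05 for ESCs (4.89 to 7.55). Both KO libraries again stood above both WT libraries. The 2 genes lie on different chromosomes and kept the same order of libraries. The ratio of EBs to ESCs was 2.86 for Col1a1 (2.68 to 3.06) and 2.68 for Col1a2 (2.43 to 2.95) in KO cells, and 2.82 (2.38 to 3.34) and 2.88 (2.20 to 3.77) in WT cells.

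Col3a1 (NM_009930; chromosome 1, 45311538 to 45349706), the homotrimeric partner of collagen I in elastic tissues, had 1094 in KO EBs, 62.3 in WT EBs, 265 in KO ESCs and 31.9 in WT ESCs. Both KO libraries stood above both WT libraries here too, an order whose share over all genes was not counted. The ratio of KO to WT was larger in EBs, at 17.6 (12.8 to 24.8), than in ESCs, at 8.29 (6.02 to 11.7). Per coding base Col3a1 reached 0.397 of Col1a1 in KO EBs (0.364 to 0.433) and 0.117 in WT EBs (0.0824 to 0.163). In KO ESCs that ratio was 0.275 (0.249 to 0.304), and in WT ESCs 0.170 (0.119 to 0.237).

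Collagen V is the minor fibrillar collagen that starts and thins the fibrils. Col5a1 (NM_015734; chromosome 2, 27886381 to 28039510) had 1302 in KO EBs, 182 in WT EBs, 552 in KO ESCs and 162 in WT ESCs. Both KO libraries were again above both WT libraries, while the WT libraries were close to each other: the ratio of WT EBs to WT ESCs was 1.13, and its interval of 0.890 to 1.42 includes 1. Col5a2 (NM_007737; chromosome 1, 45374331 to 45503282) had 476 in KO EBs, 51.4 in WT EBs, 324 in KO ESCs and 84.8 in WT ESCs. In WT cells Col5a2 was lower in EBs than in ESCs, by 1.65-fold, with a ratio of EBs to ESCs of 0.606 (0.398 to 0.902). In KO cells it was higher in EBs, with a ratio of 1.47 (1.28 to 1.69). For KO over WT, Col5a1 had a ratio of 7.14 in EBs (5.88 to 8.73) and 3.41 in ESCs (2.93 to 3.97), and Col5a2 had 9.26 in EBs (6.46 to 13.7) and 3.82 in ESCs (3.11 to 4.72). Both chains were thus further apart between the genotypes in EBs, which the chains of collagen I were not.

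Col5a2 and Col3a1 are neighbours on chromosome 1, on opposite strands and with their 3′ ends facing. The ratio of EBs to ESCs for Col3a1 was 4.14 in KO cells (3.69 to 4.64), beside 1.47 for Col5a2. In WT cells it was 1.95 (1.23 to 3.10), beside 0.606 for Col5a2, so in WT cells the 2 genes stood on opposite sides of 1.

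Collagen VI showed the widest distance between the stages among the genes with reads in all 4 libraries. Col6a1 (NM_009933; chromosome 10, 76708792 to 76726044) had 1964 in KO EBs, 109 in WT EBs, 50.1 in KO ESCs and 17.1 in WT ESCs. Col6a2 (NM_146007; chromosome 10, 76595756 to 76623630), the nearby α2 gene on the same strand, had 1891 in KO EBs, 131 in WT EBs, 45.9 in KO ESCs and 14.0 in WT ESCs. For both genes both EB libraries stood above both ESC libraries, and within each stage KO stood above WT. How many of all genes had that order was not counted. The ratio of KO to WT was 18.01 for Col6a1 (14.1 to 23.2) and 14.4 for Col6a2 (11.6 to 18.2) in EBs, and 2.93 (1.83 to 4.89) and 3.27 (1.95 to 5.79) in ESCs. The counts in WT ESCs rest on 22 and 18 reads. In KO cells the ratio of EBs to ESCs was 39.2 for Col6a1 (31.8 to 48.8) and 41.2 for Col6a2 (33.1 to 51.9), and in WT cells it was 6.37 (3.90 to 10.8) and 9.34 (5.57 to 16.5).

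Col15a1 (NM_009928; chromosome 4, 47207655 to 47313167) had 400 in KO EBs, 39.0 in WT EBs, 1.60 in KO ESCs and 0 in WT ESCs, from 268, 25, 3 and 0 reads. It was detectable above the floor of 3 reads in EBs and not in ESCs, and its ratio of KO to WT EBs was 10.3 (6.81 to 16.1). In WT cells it was at least 16.7-fold higher in EBs than in ESCs, taking WT ESCs at a floor of 3 reads, or 2.34. In ESCs no fold between the genotypes is given.

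**Figure D2:**
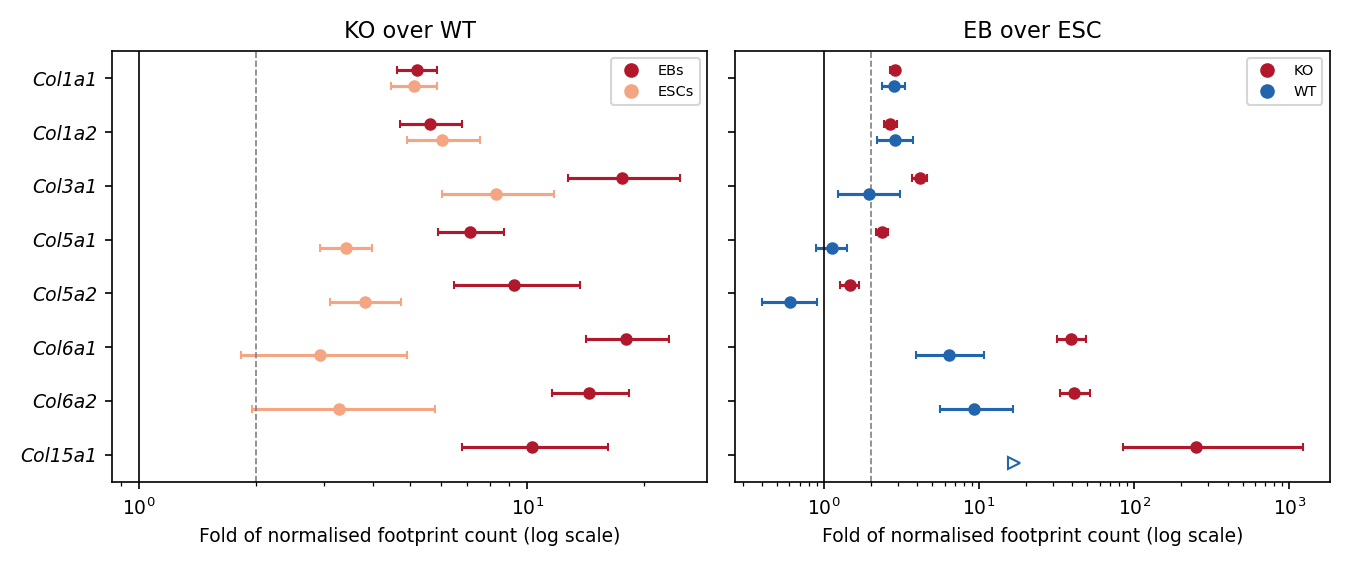
Fold of the normalised footprint count (log axis) of the 8 measured collagen genes, KO over WT in EBs and ESCs on the left and EB over ESC in KO and WT cells on the right; bars are 95% exact binomial intervals, the dashed line is 2-fold, and the open triangle is a lower bound. For collagen I the EB and ESC points of KO over WT lie between 5.11 and 6.05, whereas for Col6a1 they lie at 18.01 and 2.93.

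Counted by a limit of 2-fold on log2(value + 1), a scale that shrinks the folds of low genes, all 8 measured genes were higher in KO than in WT at both stages. The background is the 9670 genes whose mean over all libraries reached 25. Between KO EBs and WT EBs 15.2% of them passed the limit upward and 12.2% downward, and between KO ESCs and WT ESCs 10.6% and 4.42% did. The median log2 fold of the 8 genes was 3.26 in EBs and 1.84 in ESCs, beside −0.0666 and −0.00435 over all 9670 genes. Col15a1 passed that mean only through KO EBs, and its place in the ESC count rests on 3 reads against 0; with a pseudocount of 5 it drops out and 7 remain. The other 7 passed it also without their highest library. As the genes were chosen with earlier results of these data known, their counts beside the background are a description.

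Between stages, 5 of the 8 genes passed the limit upward in WT EBs over WT ESCs and 0 downward, beside 11.0% and 8.25% of all genes. Below the limit were Col3a1, Col5a1 and Col5a2. In KO cells 7 of 8 passed it upward in EBs over ESCs and 0 downward, beside 9.31% and 6.65% of all genes, and Col5a2 did not. Col15a1 is in both of these counts and in the next one, though it reached the filter only through KO EBs, where it was high. The change between stages in KO cells exceeded that in WT cells by 1 or more on the log2 scale for 6 of the 8, beside 11.4% of all genes, and fell short of it by as much for 0, beside 12.5%. For Col6a1 the ratio of the 2 changes was 6.15 (exact conditional interval 3.46 to 10.6), for Col6a2 4.41 (2.38 to 7.81) and for Col5a2 2.43 (1.59 to 3.79). Col1a1 and Col1a2, by contrast, had ratios of 1.02 (0.846 to 1.22) and 0.930 (0.696 to 1.24), with intervals that include 1. Col3a1 and Col5a1 passed the limit narrowly, with ratios of 2.117 (1.31 to 3.41) and 2.095 (1.63 to 2.70). For Col15a1, also 1 of the 6, the ratio has no value, because WT ESCs had no read. Its place in that count rests on 3 reads in KO ESCs and 0 in WT ESCs.

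A fit across all genes set KO against WT with stage as a term, and EB against ESC with genotype as a term, which leaves 1 residual degree of freedom. That degree of freedom also holds any difference of the KO effect between stages. The SEs and p-values below therefore do not measure a spread between replicates. For KO against WT limma called 0 of 9670 genes at an adjusted p of 0.05; 1627 genes had an unadjusted p under 0.05, 937 of them higher in KO (9.69%), and 7 of the 8 collagen genes were among these. The lowest adjusted p among them was 0.0616 by limma, shared by Col1a1 (log2 fold 2.36, SE 0.272), Col1a2 (2.53, SE 0.315) and Col3a1 (3.56, SE 0.426). All 8 stood higher in KO at 2 of 2 stages, Col15a1 in ESCs by 3 reads against 0. The share of all genes that stood higher in KO at both stages was not counted. On reads recovered from the table edgeR also called 0 genes; 1556 had an unadjusted p under 0.05, of which those higher in KO made up 9.80% of genes and included all 8. DESeq2 called 251 genes higher in KO (2.60%) and 71 lower, and all 8 collagen genes were among the higher ones. For EB against ESC limma called 21 genes higher in EBs (0.217%) and 5 lower, and of the 8 only Col6a2 passed, with a log2 fold of 4.24 (SE 0.577) and an adjusted p of 0.0462. By edgeR, which called 20 genes higher (0.207%), only Col15a1 passed, with an adjusted p of 0.0248, and it had entered the test only through KO EBs. DESeq2 called 274 genes higher (2.83%), 6 of the 8 among them, again with Col15a1. At an unadjusted p under 0.05 the genes higher in EBs made up 7.18% by limma and 7.51% by edgeR, with 6 of the 8 among them by either tool.

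Set against other genes per coding length, the 8 genes lay below the median gene in WT EBs, KO ESCs and WT ESCs, and 6 of them lay above it in KO EBs. Over 9597 genes the median level was 217 per kb in KO EBs, 231 in WT EBs, 232 in KO ESCs and 216 in WT ESCs. In KO EBs Col6a1 at 638 per kb (604 to 674), Col1a1 at 627 (598 to 656) and Col6a2 at 609 (576 to 644) had overlapping Poisson intervals, and each exceeded 75.9% to 76.9% of those genes. Next came Col1a2 at 294 per kb, Col3a1 at 249 and Col5a1 at 236, the last 2 with overlapping intervals, and then Col5a2 at 106 and Col15a1 at 97.5, also overlapping.

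In WT EBs the order per kb was led by Col1a1 at 121 (108 to 134), which exceeded 35.1% of genes. Below it Col1a2 at 52.2, Col6a2 at 42.2, Col6a1 at 35.4 and Col5a1 at 33.1 overlapped each with the next, as did Col3a1 at 14.2, Col5a2 at 11.4 and Col15a1 at 9.49. In KO ESCs Col1a1 led at 219 per kb, followed by Col1a2 at 110 and Col5a1 at 99.98, which overlapped, then Col5a2 at 72.1 and Col3a1 at 60.2. In WT ESCs Col1a1 stood at 42.8 per kb and Col5a1 at 29.3, while Col5a2 at 18.9 and Col1a2 at 18.1 overlapped and the remaining 4 genes were lower. Col1a1 thus led in 3 libraries, and in KO EBs its interval overlapped that of Col6a1.

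**Figure D3:**
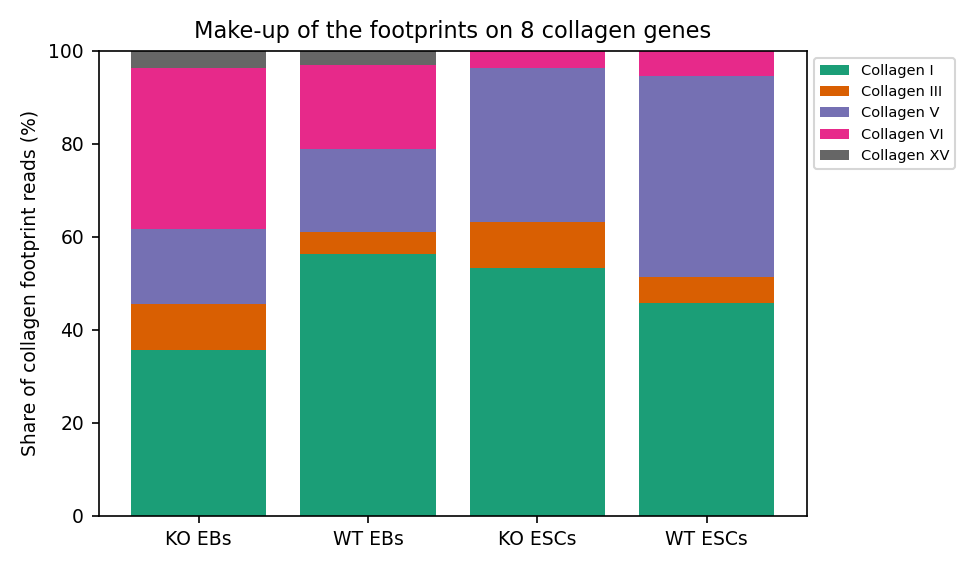
Share of the footprint reads on the 8 measured collagen genes (%) held by each collagen type in each library. Collagen VI holds 34.8% in KO EBs and 18.2% in WT EBs, against 3.63% in KO ESCs and 5.45% in WT ESCs.

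The make-up of the collagen footprints differed between libraries. Collagen I held 35.6% of the 7416 reads in KO EBs (exact interval 34.5 to 36.7) and 56.3% of the 845 in WT EBs (52.9 to 59.7). In ESCs the order was the other way, with 53.2% in KO ESCs (51.8 to 54.6) and 45.8% in WT ESCs (42.1 to 49.5). Collagen VI held 34.8% in KO EBs (33.7 to 35.9) against 18.2% in WT EBs (15.7 to 21.0). Collagen III had the larger share in KO, with 9.88% in KO EBs against 4.73% in WT EBs and 10.0% in KO ESCs against 5.59% in WT ESCs. Collagen V had the larger share in ESCs, where it held 33.1% in KO ESCs (31.8 to 34.4) and 43.2% in WT ESCs (39.6 to 46.9), against 16.1% in KO EBs and 17.8% in WT EBs.

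Partner chains of 1 trimer kept close ratios for collagens I and VI. Collagen I is mostly built of 2 α1 chains and 1 α2 chain, collagen V most often likewise, and collagen VI of 1 α1, 1 α2 and 1 α3 chain. Per coding base the ratio of Col1a1 to Col1a2 footprints was 2.13 in KO EBs (1.96 to 2.32), 2.31 in WT EBs (1.89 to 2.84), 1.99 in KO ESCs (1.84 to 2.17) and 2.36 in WT ESCs (1.86 to 3.02). Each of the 4 intervals includes 2, although the level of Col1a1 itself spanned 187 to 2733. The ratio of Col6a1 to Col6a2 was 1.05 in KO EBs (0.969 to 1.13), 0.841 in WT EBs (0.603 to 1.17), 1.10 in KO ESCs (0.814 to 1.49) and 1.23 in WT ESCs (0.631 to 2.44), and each interval includes 1.

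For collagen V the ratio of Col5a1 to Col5a2 differed between the stages. It was 2.23 in KO EBs (1.96 to 2.54) and 2.89 in WT EBs (1.95 to 4.39), with 2 inside both intervals, against 1.39 in KO ESCs (1.25 to 1.54) and 1.55 in WT ESCs (1.23 to 1.98), with 2 outside both. Set EBs over ESCs, the ratio differed 1.60-fold in KO cells (exact conditional interval 1.36 to 1.90) and 1.86-fold in WT cells (1.16 to 3.01). Between genotypes of the same stage the intervals of all 3 pairs include 1. For collagen V they ran from 0.497 to 1.17 in EBs and from 0.687 to 1.16 in ESCs.

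**Figure D4:**
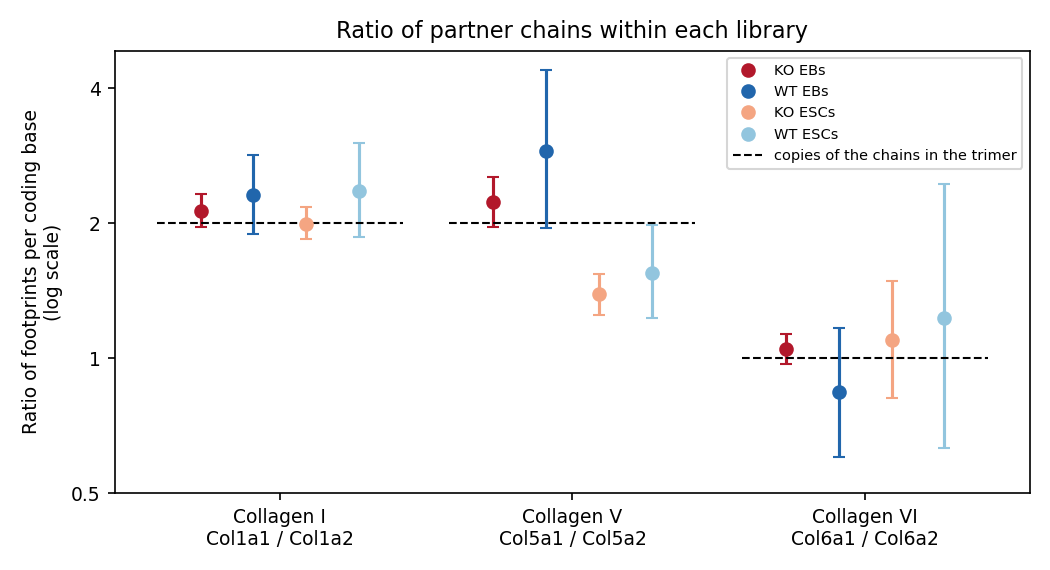
Ratio of footprints per coding base (log axis) of 2 partner chains in each library, with 95% exact binomial intervals; the dashed lines are the ratio of chain copies in the trimer, 2 for collagens I and V and 1 for collagen VI. The collagen I and VI intervals hold the line in all 4 libraries, and the collagen V intervals hold it in EBs and lie below it in ESCs.

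The GGACT sequence, a common form of the motif that the Mettl3 complex methylates, was counted in the coding sequences. It occurred 0.644 times per kb in Col6a2 to 2.18 times per kb in Col5a1, counted on the coding strand, and 6 of the 8 measured genes lay at or above the median of 1.08 over 9597 genes. The presence of these letters does not show methylation.

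Other collagen genes mostly stood higher in KO EBs as well, with basement membrane collagen IV as an exception. Of 35 further collagen genes 16 passed the filter, and in KO EBs against WT EBs 14 of these lay past the limit upward and 2 downward, beside 15.2% and 12.2% of all genes. Of the 14, 7 reached the filter only through KO EBs, where they were high, so the count is a description and the other 7 are those that passed without that library. The 2 lower ones were Col4a1, at 2950 in KO EBs against 12783 in WT EBs, and Col4a2, at 2690 against 9152. Among the higher ones were the cartilage-associated Col9a2, at 2097 in KO EBs against 296 in WT EBs, and Col5a3, a further chain of collagen V, at 219 against 59.2. In ESCs 7 of the 16 were at least 2-fold higher in KO and 1 lower, beside 10.6% and 4.42% of all genes. Col8a1, 1 of the 7, reached the filter only through KO ESCs, where it was high. Col4a1 and Col4a2 were among the higher ones there, at 884 in KO ESCs against 422 in WT ESCs and at 911 against 295.

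The ER enzymes and chaperones that modify procollagen were near the background of all genes, of which 72.6% lay within the 2-fold limit between KO EBs and WT EBs and 85.0% between KO ESCs and WT ESCs. Of 21 such genes 16 passed the filter, and in KO EBs against WT EBs 11 lay within the limit, 3 above it and 2 below it, with a median log2 fold of 0.24. The prolyl hydroxylase subunit P4ha1 stood at 1558 in KO EBs against 4239 in WT EBs, and its β subunit P4hb at 6580 against 6519. The prolyl 3-hydroxylase family ran both ways: P3h3 (202 in KO EBs against 32.7 in WT EBs) and P3h4 (985 against 265) were among the 3 higher genes, and P3h2 (22.4 against 293) was, with P4ha1, 1 of the 2 lower ones. P3h2 reached the filter only through WT EBs, where it was high. In ESCs 3 of the 16 were higher in KO, 0 lower, and the median was 0.056. P3h2 was 1 of these 3, from 10 reads in KO ESCs against 2 in WT ESCs, and the interval of its ratio, 0.730 to 32.2, includes 1. Among 11 general ER chaperones, of which 8 passed, 1 was at least 2-fold higher in KO EBs and 0 in KO ESCs.

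Of 10 export genes 9 passed, and 8 of the 9 lay within the limit between KO EBs and WT EBs, beside the same 72.6% of all genes. Mia3, the receptor that loads procollagen into carriers, stood at 1685 in KO EBs against 1777 in WT EBs. Creb3l2, a transcription factor of the secretory pathway, was the only one at least 2-fold apart, at 197 in KO EBs against 552 in WT EBs. In ESCs 0 of the 9 were at least 2-fold apart, beside 85.0% of all genes within the limit, and the medians were −0.38 in EBs and −0.10 in ESCs.

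Genes that act on collagen outside the cell included many that stood higher in KO. Of all genes, 15.2% lay past the limit upward and 12.2% downward in KO EBs, and 10.6% and 4.42% in KO ESCs. Of 9 processing and assembly genes that passed, out of 20, 6 were at least 2-fold higher in KO EBs and 1 lower, and the crosslinking enzymes ran in opposite directions: Loxl1 stood at 472 in KO EBs against 82.6 in WT EBs, and Loxl2 at 37.3 against 187. Loxl2 reached the filter only through WT EBs, where it was high. The median log2 fold of the 9 was 1.88 in EBs and 0.60 in ESCs. Of 7 receptor and uptake genes that passed, out of 11, 5 were higher in KO EBs, such as the collagen-activated kinase Ddr2 at 157 against 20.3, and the median log2 fold was 2.24. Itga11, 1 of the 5, reached the filter only through KO EBs, where it was high. The shared integrin subunit Itgb1 was close to equal, at 3760 in KO EBs against 4157 in WT EBs. The degradation list of 9 genes also holds the inhibitors Timp1, Timp2 and Timp3. Of the 7 that passed, 5 were higher in KO EBs and 5 in KO ESCs, with medians of 1.17 and 2.05. The inhibitor Timp2 was among the 5 at each stage, so these counts are not a measure of degradation. The membrane collagenase Mmp14 stood at 1882 in KO EBs against 521 in WT EBs, and at 1379 in KO ESCs against 354 in WT ESCs.

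**Figure D5:**
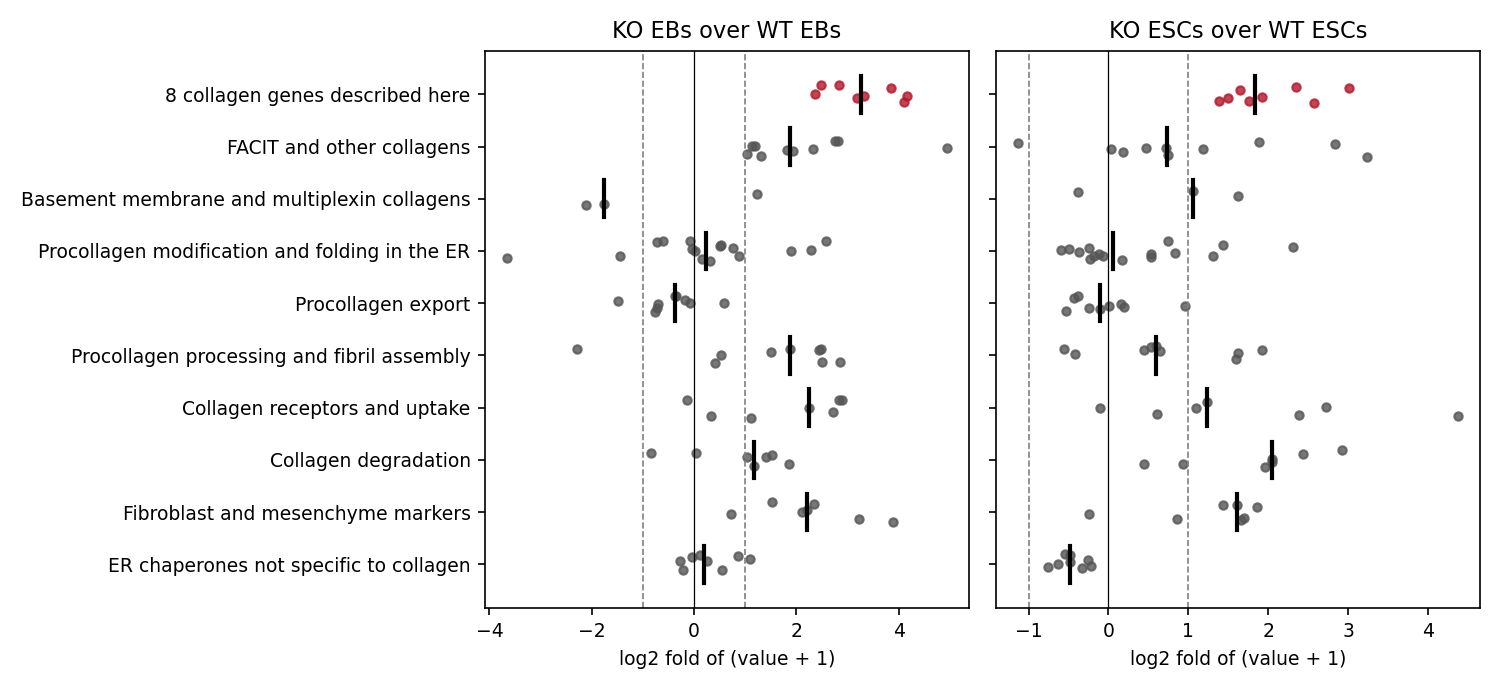
log2 fold of (value + 1) of each gene that passed the filter, by list, KO EBs over WT EBs on the left and KO ESCs over WT ESCs on the right; each point is 1 gene, black bars are list medians and dashed lines mark 2-fold. The 8 collagen genes have medians of 3.26 in EBs and 1.84 in ESCs, and the ER modification genes 0.24 and 0.056.

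Markers of mesenchyme also stood higher in KO. The shares of all genes past the limit were 15.2% upward and 12.2% downward in KO EBs, and 10.6% and 4.42% in KO ESCs. Of 15 fibroblast and mesenchyme markers 7 passed the filter; 6 were at least 2-fold higher in KO EBs than in WT EBs and 5 in KO ESCs than in WT ESCs, with 0 lower at either stage and median log2 folds of 2.20 and 1.60. The summed level of all 15 was 4256 in KO EBs, 1255 in WT EBs, 2067 in KO ESCs and 1877 in WT ESCs. Matrix Gla protein, Mgp, stood at 1185 in KO EBs against 79.5 in WT EBs, and the transcription factor Twist1 at 212 against 21.8. In ESCs Twist1 stood at 93.4 in KO against 28.8 in WT, while the intermediate filament gene Vim stood at 1314 against 1557. Pdgfra, Pdgfrb and Postn were listed at 0 in all libraries, and each has 2 or more entries in the table. Tcf21, Dpt and Fap, with a value of at most 9.60 in any library, were near 0. Prrx1 was listed at no more than 8.96, and it has 3 entries in the table. The part of mesenchymal cells in the collagen differences was not tested, and in these bulk libraries fewer cells of a type and fewer footprints per cell cannot be told apart.

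Markers of other cell types ran in both directions. They stand beside the same shares of all genes, 15.2% higher and 12.2% lower in KO EBs, and 10.6% and 4.42% in KO ESCs. Of 4 smooth muscle markers that passed, out of 7, 3 lay past the limit downward in KO EBs and 0 upward, with Acta2 at 98.5 in KO EBs against 288 in WT EBs. In ESCs 2 of these 4 were higher in KO and 0 lower. Of 4 cartilage and bone markers that passed, out of 10, 4 were higher in KO EBs, such as the cartilage matrix protein Matn1 at 560 against 45.2, and 3 were higher in KO ESCs. Of 9 parietal endoderm markers that passed, out of 11, 6 were lower in KO EBs and 0 higher, with a median log2 fold of −2.08, and of 10 visceral endoderm markers that passed 9 were lower, with a median of −4.52. Sox7 of the parietal and Ttr, Apoa4 and Foxa2 of the visceral markers reached the filter only through WT EBs, where they were high. These EB counts are therefore a description. In ESCs 1 of the parietal markers was lower in KO and 0 higher, while 4 of the visceral markers were higher and 3 lower. The part of endoderm in the collagen differences was not tested. Of 4 endothelial markers that passed, out of 8, 3 were higher and 1 lower in KO EBs, and 0 were past the limit in ESCs. The TGF-β pathway, a known inducer of collagen genes, had 6 of 11 passing genes higher in KO EBs and 0 lower, with a median log2 fold of 1.15. Tgfb2, 1 of the 6, would not have reached the filter without KO EBs. The ligand-responsive Ccn2 stood at 1626 in KO EBs against 2731 in WT EBs.

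The genes whose pattern over the 4 libraries was closest to the average of the 8 collagens included 4 matrix genes among the nearest 6. Likeness was the Euclidean distance between log2 profiles centred on each gene's mean, over 4 libraries and among 7474 genes with a mean of at least 100. How many of the 7474 are matrix genes was not counted, so the 4 of 6 is a description. The nearest were Tnc, the matrix glycoprotein tenascin C (distance 0.476), Bgn, the collagen-binding proteoglycan biglycan (0.579), and Ltbp2, a microfibril protein (0.822). Gli1, a transcription factor of hedgehog signalling, followed (0.857), then Tap2 of antigen processing (0.863) and Aebp1, a collagen-binding matrix protein (0.873). Tnc stood at 1045 in KO EBs, 99.8 in WT EBs, 148 in KO ESCs and 42.8 in WT ESCs. The members themselves lay at distances of 1.16 (Col1a1) to 3.88 (Col15a1) from their own average.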

How the data were processed

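The authors' deposited table holds a normalised signal for 27442 RefSeq coding sequences and 5 summary entries in 4 libraries; columns were matched to libraries by title, and 0 stayed unmatched. The tools listed in the submitters' processing notes are DESeq, HTSeq 0.6.0, TopHat2 2.0.10, Bowtie and CASAVA 1.8.2, with build mm10; the sources used here give no settings, annotation version or strand. In each library 100% of the deposited values were whole multiples of the smallest one within 0.01, so reads were recovered. The summary entries, at 66.6% to 72.1% of reads, stayed out of library sizes and tests.

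Entries were summed by symbol with the GRCm38.p6 table, which matched 27083. Log2 folds used a pseudocount of 1, the 2-fold limit and a filter of a mean of at least 25. limma 3.58.1 (trend), edgeR 4.0.16 (quasi-likelihood) and DESeq2 1.42.0 fitted all genes with Benjamini-Hochberg adjustment. The fits of limma and edgeR were tested on simulated data, and that of DESeq2 was not. Named genes are all members, and from each of 18 lists up to the 2 highest and 2 lowest in KO EBs against WT EBs; other list genes were chosen after their values were seen. The members and lists were chosen with earlier results of these data known. Alternatives covered pseudocount, filter, scaling, entries and tool.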

Additional observations from a re-analysis of the deposited data

Results flagged for a closer look

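In 1 member the change from ESCs to EBs ran in opposite directions in the 2 genotypes. Col5a2 had a log2 fold of 0.56 in KO cells (EB against ESC) and −0.71 in WT cells, a difference of 1.27, with counting intervals that leave out equality on both sides. With 1 library per group this difference between genotypes was not tested.

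Among the listed genes past the filter, 9 others were at least 2-fold apart both ways with counting intervals that leave out equality. Col9a2 was higher in EBs than in ESCs in KO cells and lower in WT cells, a difference of 2.64 on the log2 scale. Between KO and WT, the basement membrane chains Col4a1 and Col4a2 were lower in EBs and higher in ESCs, with differences of −3.18 and −3.39. The same held for the contractile genes Myl9 (−4.13) and Acta2 (−2.91) and for 3 endoderm genes, the transcription factor Hnf4a (−5.66), the apolipoprotein Apoa1 (−5.68) and the endocytic receptor subunit Amn (−5.64). Col22a1 was higher in KO EBs and lower in KO ESCs, a difference of 2.17. P3h2, Ttr and Col20a1 also lay past the limit in opposite directions, but 1 of the 2 intervals of each includes equality. None of these differences was tested.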

How the results depend on the processing

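No paired analysis was possible because each group has 1 library and the labels carry no replicate numbers. The counts of members past the 2-fold limit stayed within 1.5 times the reported ones under each alternative of pseudocount, filter, scaling and entry choice; with a pseudocount of 5 Col15a1 drops out between KO and WT ESCs, leaving 7 of 8. Of 280 member log2 folds under alternatives 278 stayed within the counting interval, 0 reversed and 2, both of Col15a1, moved with a pseudocount of 5: 3.14 in WT EBs against WT ESCs and 5.94 in KO EBs against KO ESCs. For KO against WT with stage as a term the call depends on the tool, with 0 members by limma and edgeR and 8 by DESeq2. For EB against ESC it was 1 by limma and edgeR, 2 by limma with a pseudocount of 5 and 6 by DESeq2. The cause of these differences was not tested. Of 504 list counts 38 moved by over 1.5 times, mostly with another filter, in lists of few genes. Chain ratios stayed within their intervals when coding lengths were restricted to unshared or uncopied bases, an alternative chosen after seeing the data. Scaling each library to the same gene total put the median of all genes at 0.122 between KO and WT ESCs. Counting error limits Col15a1, Col6a1 and Col6a2 in ESCs most.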
